A study of Mus musculus with 10 samples.

Results

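The genes described here are *Calb2*, which encodes calretinin, and 9 further genes for EF-hand proteins that buffer or sense calcium in neurons, namely *Calb1*, *Pvalb*, *Scgn*, *Hpca*, *Hpcal1*, *Ncald*, *Vsnl1*, *Necab1* and *Necab2*. They were chosen by symbol from the 55414 genes counted in each library, and *Calb2* was chosen by its measured difference between the groups compared here. Its values are therefore given as a description, with no test. The filter on low counts, which asked for 10 counts or more in 5 or more of the libraries, left 17490 genes to be tested, and all 10 genes passed it by reaching 10 counts in every library of both groups.

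Bulk RNA-sequencing was carried out on dorsal root ganglia (DRG) of 5 control and 5 *WD1* cKO mouse embryos at E18.5. Both groups carried *Dach1* flox/flox alleles on a mixed C57Bl/6J and CD1 background, and only *WD1* cKO embryos carried *Wnt1*Cre/+, which acts in the neural crest, the source of both neurons and glia of the DRG. The Cre allele and the loss of *Dach1*, a transcription factor, cannot be told apart in this design, and the comparison asks how RNA levels in the ganglion differ after early deletion of *Dach1*. Controls were littermates, but the labels do not tie an embryo to a litter, so the p-values measure the spread between these libraries.

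In the labels, the genotypes of control and *WD1* cKO samples are swapped compared with their titles, and groups were taken from the titles. Levels are given as CPM, the count for each 1000000 reads assigned to genes, after scaling by edgeR's TMM method. *Dach1* (ENSMUSG00000055639) was at 37.9 ± 2.40 CPM (SD, n = 5) in control libraries and 20.02 ± 0.677 CPM (SD, n = 5) in *WD1* cKO libraries. The groups did not overlap, with 35.1 to 41.6 CPM in control and 19.1 to 20.7 CPM in *WD1* cKO libraries, so the counts go with the titles. The floxed exon is 1 part of the gene, and the counts cover all of its exons. Control libraries held 20465132 to 27528784 counts in total and *WD1* cKO libraries 19757596 to 34796562. Summed over 8 pan-neuronal marker genes the level was 7199 to 7760 CPM in control and 7345 to 7683 CPM in *WD1* cKO libraries, and over 7 glial markers 759 to 881 and 739 to 933 CPM. One library stood apart: control replicate 3 held 24.4 CPM summed over 12 spinal cord marker genes, of which 10 were highest there, against 0.405 to 1.01 CPM in the other controls and 0.661 to 2.19 CPM in *WD1* cKO libraries. In bulk RNA, fewer cells of a type and less RNA per cell cannot be told apart.

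An EF-hand is a helix, a short loop and a second helix, and the loop holds a calcium ion through acidic and polar residues at fixed positions. Buffers such as calretinin, calbindin and parvalbumin bind calcium that enters a neuron and shape how long and how far it spreads, while sensors of the visinin-like family change their shape on binding calcium and carry the signal to membranes and target proteins. In sensory ganglia these proteins are known for their restricted patterns: parvalbumin marks proprioceptors, which report muscle stretch, and calretinin is found in a subset of low-threshold mechanoreceptors (LTMR), touch neurons that include those of Pacinian corpuscles.

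The coding sequences of the 10 genes were read from the GENCODE transcripts of GRCm38 and searched for the canonical loop of 12 residues. The calretinin transcript *Calb2*-201 encodes 271 residues with 5 such loops, and *Calb1*-201 encodes 261 residues with 4 loops. *Pvalb* encodes 110 residues with 2 loops, *Scgn* 276 residues with 4, and *Hpca*, *Hpcal1*, *Ncald* and *Vsnl1* encode 191 to 193 residues with 3 loops each, while *Necab1* has 1 such loop in 352 residues and *Necab2* has 2 in 389. The loops below are shown because the results turn on telling *Calb2* reads from *Calb1* reads, and because *Hpca* and *Hpcal1* are the closest pair of the set. Capitals mark the codons of loop positions 1, 3, 5 and 12, whose residues hold the calcium ion. The loops lie on GRCm38 at chr8:110149362-110149397 (minus strand) for *Calb2* loop 3, chr4:15895644-15895679 (plus strand) for *Calb1* loop 2, chr15:78202526-78202561 (minus strand) for *Pvalb* loop 1, chr13:23974814-23974849 (minus strand) for *Scgn* loop 1, chr4:129118382-129118417 (minus strand) for *Hpca* loop 2 and chr12:17786495-17786530 (plus strand) for *Hpcal1* loop 2, each within 1 coding exon.
*Calb2* loop 3: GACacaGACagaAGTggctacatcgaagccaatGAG
*Calb1* loop 2: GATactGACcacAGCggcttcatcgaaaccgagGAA
*Pvalb* loop 1: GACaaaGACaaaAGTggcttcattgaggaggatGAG
*Scgn* loop 1: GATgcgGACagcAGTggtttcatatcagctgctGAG
*Hpca* loop 2: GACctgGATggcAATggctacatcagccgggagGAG
*Hpcal1* loop 2: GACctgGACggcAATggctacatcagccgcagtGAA

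Calretinin and calbindin were identical at 58.1% of aligned residues and 63.6% of aligned coding bases, and the longest identical run in the alignment of their coding sequences was 12 bases. Neither gene shared a stretch of 50 bases with any other gene of the annotation, and nor did *Pvalb*, *Scgn*, *Vsnl1*, *Necab1* or *Necab2*. *Hpca* and *Hpcal1* were identical at 93.8% of residues and 86.0% of coding bases, with a longest identical run of 38 bases. The share of stretches of 50 bases that another gene also held was 0.197% for *Hpca*, 6.50% for *Hpcal1* and 1.62% for *Ncald*, mainly through the genes 2410018L13Rik for *Hpcal1* and Gm49397 for *Ncald*, so a part of their reads could have been left out or assigned elsewhere. Exons of *Hpca*, *Ncald* and *Necab1* overlapped those of genes on the opposite strand, and the strand setting of the counting is not given in the sources used here. The overlapping genes were counted 7 to 25 times for *Tmem54* beside *Hpca*, 0 times for Gm28221 beside *Ncald* and 26 to 45 times for Gm11837 beside *Necab1* in each library.

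Of the 9 genes other than *Calb2*, 0 had an adjusted p under 0.05 in the quasi-likelihood test of edgeR (Benjamini-Hochberg adjustment over all genes tested) or in DESeq2's Wald test, and edgeR put 0.04% of all genes tested past that threshold (6 lower and 1 higher). *Calb2*, chosen by its difference, is described without a call. Its groups did not overlap, which goes with its choice and is not counted here. Among the 9 genes other than *Calb2*, only *Calb1* had groups that did not overlap, being higher in all 5 *WD1* cKO libraries. Of all genes tested, 1.06% had groups that did not overlap. Of the 9 genes other than *Calb2*, 1 had an unadjusted p under 0.05, against 4.5% of all genes tested. The median log2 fold change of these 9 genes was 0.095, with 3 of 9 below 0, against a median of 0.00022 over all genes tested, of which 49.9% were below 0.

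**Figure D1:**
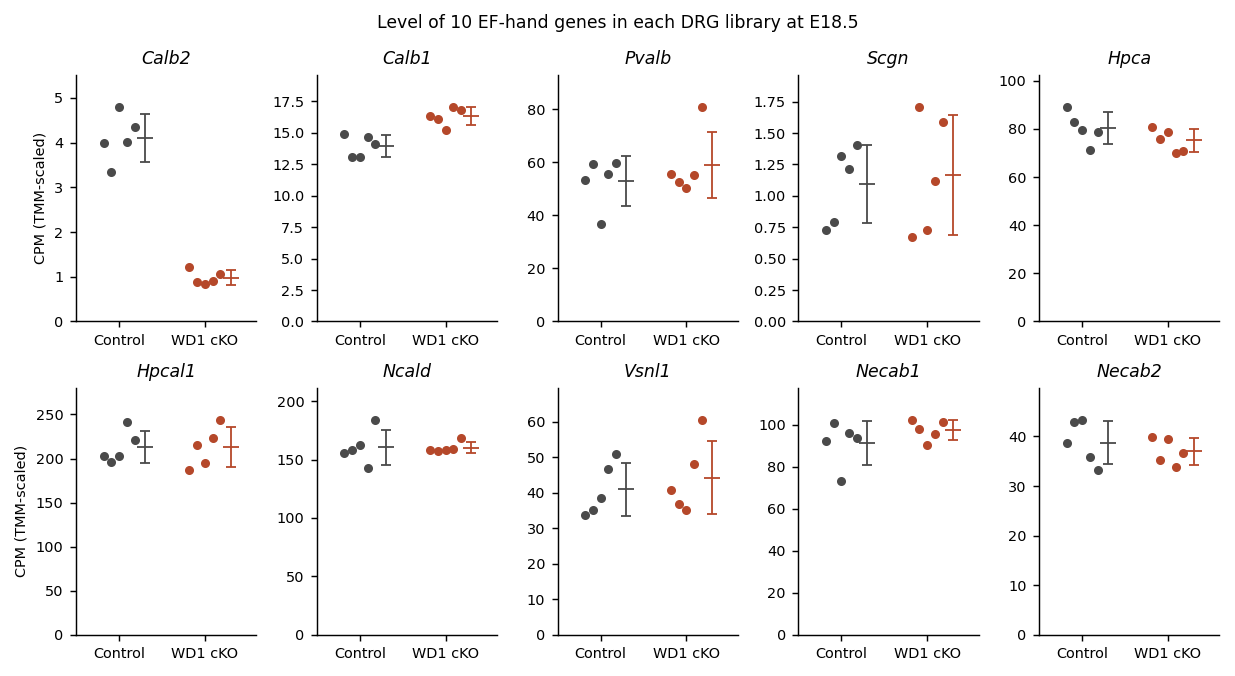
CPM (TMM-scaled, each vertical axis from 0) of the 10 EF-hand genes in 5 control and 5 *WD1* cKO libraries; each point is 1 library in the order of its replicate number, and the bar beside the points is the mean with its SD. *Calb2* lies between 3.35 and 4.80 CPM in control and between 0.828 and 1.22 CPM in *WD1* cKO libraries, *Calb1* lies higher in every *WD1* cKO library, and the groups overlap for the other 8 genes.

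*Calb2* (ENSMUSG00000003657, chromosome 8), the calretinin gene, had counts of 82, 76, 102, 109 and 99 in the control libraries, in the order of replicates 1 to 5, and of 29, 23, 25, 18 and 37 in the *WD1* cKO libraries. These counts correspond to 4.00, 3.35, 4.80, 4.01 and 4.36 CPM in control and 1.22, 0.874, 0.828, 0.915 and 1.07 CPM in *WD1* cKO libraries. No *WD1* cKO library reached the lowest control, and the gap between the groups was wider than the range within either of them. The mean was 4.10 ± 0.533 CPM (SD, n = 5) in control and 0.981 ± 0.162 CPM (SD, n = 5) in *WD1* cKO embryos. The fitted log2 fold change was -2.06 (SE 0.14), so that *WD1* cKO libraries held 0.240 times the level of the controls.

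The spread of *Calb2* between libraries was close to that of counting alone. In *WD1* cKO libraries the coefficient of variation was 16.5%, while Poisson counting at these depths gives 19.5%, and in control libraries it was 12.98% against 10.3%. The exact Poisson 95% interval, which covers counting error only, reached up to 1.75 CPM in *WD1* cKO replicate 1, the highest of its group, and down to 2.64 CPM in control replicate 2, the lowest of its group. Calretinin RNA thus remained countable in every *WD1* cKO library. *Calb2* was highest in control replicate 3, the library with spinal cord RNA, and without that library its log2 fold change was -2.00.

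The level of *Calb2* was set beside markers of the touch neurons that hold calretinin. Summed over 8 genes of A-LTMR, the large- and medium-diameter touch receptors, the level was 1347 to 1452 CPM in control and 1350 to 1485 CPM in *WD1* cKO libraries, and the groups overlapped. *Ret*, a receptor gene that nociceptors also express, made up most of this sum, at 747 CPM in control and 791 CPM in *WD1* cKO embryos, so the sum says little of the other 7 genes. None of these 8 genes had an adjusted p under 0.05 in edgeR's test, and at an unadjusted p under 0.05 there were 2 lower and 3 higher, against 4.5% of all genes tested (417 lower and 370 higher). The list was chosen with earlier results of these data known, so this count is a description. *Shox2*, a transcription factor of touch neurons, was at 14.8 CPM in control and 18.2 CPM in *WD1* cKO embryos (log2 fold change 0.30, SE 0.073, edgeR adjusted p = 0.784). *Ntrk2*, which encodes the receptor TrkB, was at 215 and 189 CPM (log2 fold change -0.18, SE 0.056, edgeR adjusted p = 1.00). The remaining 3, named after their values were seen, were *Gfra2* at 0.14, *Mafa* at 0.34 and *Cacna1h* at -0.14 on the log2 scale. *Colq*, also named after its values were seen, had the largest log2 fold change in size of the 8, at -0.87 (SE 0.42, edgeR unadjusted p = 0.0639). Its mean was 1.47 CPM in control and 0.807 CPM in *WD1* cKO embryos. Its groups overlapped, at 0.662 to 2.77 CPM in control and 0.298 to 1.30 CPM in *WD1* cKO libraries. The paper uses *Colq* to mark Aδ-LTMR in adult ganglia. The study picked *Shox2* as well from these same libraries, so its direction here is not independent evidence. Apart from these libraries, the paper reports a larger share of Shox2+/TrkB+ neurons by immunostaining of *WD1* cKO ganglia. By in situ hybridization it found no more *Shox2*-expressing cells. The marker levels given here are those of whole ganglia, and their part in the level of *Calb2* was not tested.

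*Calb1* (ENSMUSG00000028222, chromosome 4), which encodes the buffer calbindin-D28k and is the closest relative of *Calb2* in the set, had counts of 306, 297, 277, 399 and 321 in control replicates 1 to 5 and of 388, 423, 460, 336 and 582 in the *WD1* cKO libraries. In CPM these were 14.9, 13.1, 13.04, 14.7 and 14.1 CPM in control and 16.3, 16.1, 15.2, 17.1 and 16.8 CPM in *WD1* cKO libraries. All 5 *WD1* cKO libraries were above all 5 controls, by a narrow margin, since the lowest *WD1* cKO library (replicate 3, 15.2 CPM) was next to the highest control (replicate 1, 14.9 CPM). The order was the same on plain totals without TMM, at 15.4 CPM for the lowest *WD1* cKO and 15.0 CPM for the highest control library.

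The mean of *Calb1* was 14.0 ± 0.876 CPM (SD, n = 5) in control and 16.3 ± 0.714 CPM (SD, n = 5) in *WD1* cKO embryos. The log2 fold change was 0.22 (SE 0.058, 95% interval 0.095 to 0.35), a level higher by 6.79% to 27.3%. The unadjusted p was 0.00246 and the adjusted p 0.934 in edgeR's quasi-likelihood test over 17490 genes, and an exact two-sided permutation test gave p = 0.00794, the smallest that 5 against 5 libraries allow. The cut-off of the study, an unadjusted p under 0.005 with a log2 fold change beyond 0.15 in either direction, was applied here to edgeR's values. *Calb1* was the only one of the 9 genes past it, and 0.383% of all genes tested passed it. The study used DESeq2, so the genes on its own list can differ. With the multiple testing taken into account the difference of *Calb1* did not pass, and its log2 fold change ranged from 0.20 to 0.25 over 17 alternative settings, with edgeR or DESeq2 adjusted p from 0.402 to 1.00. Without control replicate 3, in which *Calb1* was lowest, it was 0.20.

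The ratio of *Calb1* to *Calb2* puts both differences on 1 scale within each library and needs no scaling between libraries. Per length of exon, *Calb1* was at 1.34, 1.41, 0.977, 1.32 and 1.17 times the level of *Calb2* in control replicates 1 to 5 and at 4.81, 6.62, 6.62, 6.71 and 5.66 times that level in *WD1* cKO replicates 1 to 5. Calbindin and calretinin RNA were thus at similar levels in control ganglia, and in all 5 *WD1* cKO libraries calbindin RNA was the more abundant by far. This ratio holds the difference by which *Calb2* was chosen and is given as a description.

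**Figure D2:**
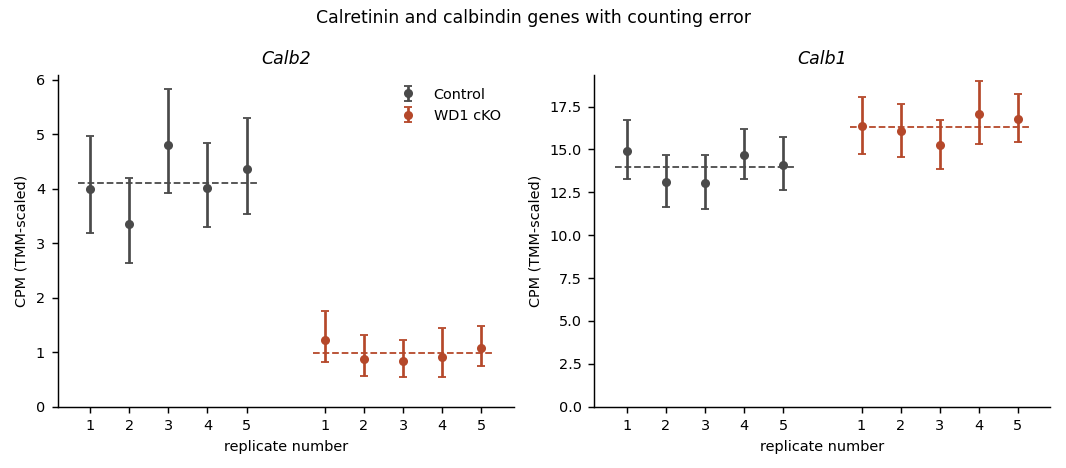
CPM (TMM-scaled, vertical axis from 0) of *Calb2* and *Calb1* in each library by replicate number, with exact Poisson 95% intervals that cover counting error only; dashed lines are the group means. The means of *Calb2*, chosen by this difference and shown as a description, are 4.10 and 0.981 CPM. The means of *Calb1*, 14.0 and 16.3 CPM, differ by less than the width of the interval of any single library.

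*Pvalb* (ENSMUSG00000005716, chromosome 15), the parvalbumin gene, was at 53.4, 59.5, 37.0, 55.6 and 59.7 CPM in control replicates 1 to 5 and at 55.6, 52.8, 50.4, 55.1 and 81.0 CPM in *WD1* cKO replicates 1 to 5. The groups overlapped, and 1 library of each stood away from the others of its group: control replicate 3 was low and *WD1* cKO replicate 5 was high. The mean was 53.0 ± 9.38 CPM (SD, n = 5) in control and 59.0 ± 12.5 CPM (SD, n = 5) in *WD1* cKO embryos, with a log2 fold change of 0.15 (SE 0.15, 95% interval -0.16 to 0.47, edgeR adjusted p = 1.00). Without *WD1* cKO replicate 5 the log2 fold change was 0.0072, and without control replicate 3 it was 0.051.

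The coefficient of variation of *Pvalb* was 17.7% in control and 21.2% in *WD1* cKO libraries, similar to that of *Vsnl1* (18.3% and 23.3%). The 2 libraries that stood away from the others were at the ends of the range of 5 proprioceptor markers, *Ntrk3*, *Runx3*, *Etv1*, *Spp1* and *Whrn*. Their summed level was 562, 600, 464, 589 and 582 CPM in control replicates 1 to 5 and 602, 557, 530, 565 and 643 CPM in *WD1* cKO replicates 1 to 5. Control replicate 3 was thus lowest and *WD1* cKO replicate 5 highest in both measures, and within the *WD1* cKO group replicate 3 was the lowest in both. *Ntrk3* and *Etv1*, at 316 and 189 CPM in control embryos, made up most of this sum, so it says little of the other markers. The paper uses TrkC, which *Ntrk3* encodes, to label A-LTMR as well as proprioceptors. None of the 5 markers had an adjusted p under 0.05 in edgeR's test. *Spp1*, which encodes osteopontin, had the smallest p, with a log2 fold change of 0.43 (SE 0.15, edgeR unadjusted p = 0.0160, adjusted p = 1.00), and *Whrn*, which encodes the scaffold protein whirlin, was next at -0.081 (SE 0.053, edgeR adjusted p = 1.00). The part of these markers, and of the spinal cord RNA of control replicate 3, in the level of *Pvalb* was not tested.

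**Figure D3:**
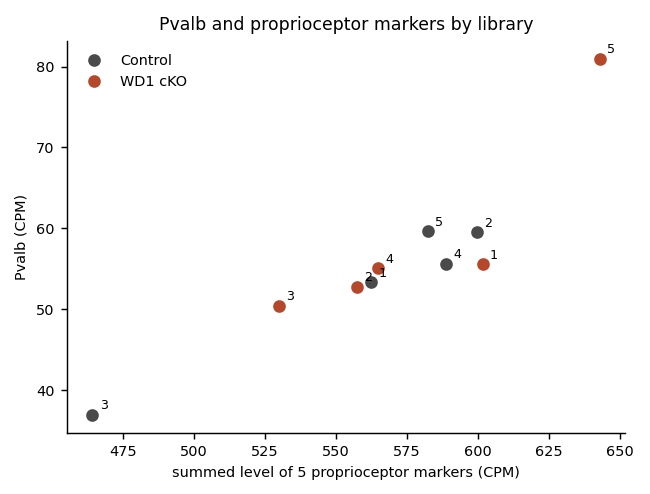
CPM of *Pvalb* against the summed CPM of 5 proprioceptor markers in each of the 10 libraries, labelled by replicate number; neither axis starts at 0. Control replicate 3 is at the lower left (464 and 37.0 CPM) and *WD1* cKO replicate 5 at the upper right (643 and 81.0 CPM), with the other 8 libraries between 50.4 and 59.7 CPM of *Pvalb* and no separation of the groups.

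*Scgn* (ENSMUSG00000021337, chromosome 13), which encodes the sensor secretagogin, was the least abundant of the set in control ganglia. Its counts were 15, 18, 28, 33 and 32 in the control libraries and 16, 45, 22, 22 and 55 in the *WD1* cKO libraries, which are 0.732, 0.794, 1.32, 1.21 and 1.41 CPM and 0.674, 1.71, 0.729, 1.12 and 1.59 CPM. Low and high libraries occurred in both groups. The mean was 1.09 ± 0.310 CPM (SD, n = 5) in control and 1.16 ± 0.477 CPM (SD, n = 5) in *WD1* cKO embryos, with a log2 fold change of 0.096 (SE 0.29, 95% interval -0.54 to 0.73, edgeR adjusted p = 1.00). A difference of the size seen for *Calb2* lies outside that interval, while smaller differences in either direction lie within it, and the sign turned without control replicate 1 (-0.012), *WD1* cKO replicate 2 (-0.077) or *WD1* cKO replicate 5 (-0.059).

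Among the visinin-like sensors, *Hpca* (ENSMUSG00000028785, chromosome 4), which encodes hippocalcin, was at 89.2, 82.8, 79.6, 71.3 and 78.9 CPM in control and 80.8, 75.9, 78.9, 70.1 and 70.8 CPM in *WD1* cKO replicates 1 to 5. In 2 *WD1* cKO libraries it was below every control, and the other 3 lay within the range of the controls. The log2 fold change was -0.092 (SE 0.059, 95% interval -0.22 to 0.036, edgeR adjusted p = 1.00). Its means were 80.4 ± 6.50 CPM (SD, n = 5) in control and 75.3 ± 4.77 CPM (SD, n = 5) in *WD1* cKO embryos.

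*Hpcal1* (ENSMUSG00000071379, chromosome 12), the hippocalcin-like sensor also known as VILIP-3, was at 203, 196, 203, 241 and 221 CPM in control and 187, 215, 195, 224 and 244 CPM in *WD1* cKO replicates 1 to 5. The groups overlapped, with 2 *WD1* cKO libraries below and 1 above every control, and the means were 213 ± 18.4 CPM (SD, n = 5) in control and 213 ± 22.6 CPM (SD, n = 5) in *WD1* cKO embryos. The log2 fold change was 0.00042 (SE 0.075, 95% interval -0.16 to 0.16, edgeR adjusted p = 1.00).

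*Ncald* (ENSMUSG00000051359, chromosome 15), which encodes neurocalcin delta, was at 155, 158, 163, 143 and 184 CPM in control and 158, 157, 158, 159 and 169 CPM in *WD1* cKO replicates 1 to 5. All *WD1* cKO libraries lay within the range of the controls, and 4 of them were at 157 to 159 CPM. The means were 161 ± 14.9 CPM (SD, n = 5) in control and 160 ± 4.79 CPM (SD, n = 5) in *WD1* cKO embryos. Its log2 fold change was -0.0042 (SE 0.056, 95% interval -0.13 to 0.12, edgeR adjusted p = 1.00).

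*Vsnl1* (ENSMUSG00000054459, chromosome 12), which encodes the sensor visinin-like 1, was at 33.7, 34.97, 38.6, 46.6 and 50.8 CPM in control and 40.8, 36.9, 35.04, 47.9 and 60.4 CPM in *WD1* cKO replicates 1 to 5. The groups overlapped, and the highest library was *WD1* cKO replicate 5. The log2 fold change was 0.11 (SE 0.15, 95% interval -0.23 to 0.45, edgeR adjusted p = 1.00), and -0.035 without *WD1* cKO replicate 5.

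Within both groups, *Vsnl1* separated the libraries by replicate number. Replicates 4 and 5 were at 46.6 to 60.4 CPM and replicates 1 to 3 at 33.7 to 40.8 CPM, and *Hpcal1* was likewise higher in replicates 4 and 5 (221 to 244 CPM) than in replicates 1 to 3 (187 to 215 CPM). The labels name nothing that replicates of 1 number share. The summed level of 6 blood genes moved with the same split, at 155 to 243 CPM in replicates 4 and 5 and 510 to 2471 CPM in replicates 1 to 3, and its part in these levels was not tested. Among replicates 1 to 3 alone the log2 fold change of *Vsnl1* was 0.069, and among replicates 4 and 5 alone it was 0.16. *Calb2* was at -2.06 and -2.05 and *Calb1* at 0.21 and 0.23 in the same splits.

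The NECAB proteins join an EF-hand domain to a monooxygenase-like domain and are found in neurons. *Necab1* (ENSMUSG00000040536, chromosome 4) was at 92.0, 101, 73.3, 95.9 and 93.9 CPM in control and 102, 97.7, 90.5, 95.4 and 101 CPM in *WD1* cKO replicates 1 to 5. Control replicate 3 was the lowest library, as it was for *Pvalb*, and the groups overlapped. The log2 fold change was 0.095 (SE 0.072, 95% interval -0.061 to 0.25, edgeR adjusted p = 1.00), and 0.026 without control replicate 3.

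*Necab2* (ENSMUSG00000031837, chromosome 8) was at 38.6, 42.9, 43.3, 35.8 and 33.2 CPM in control and 40.0, 35.1, 39.5, 33.7 and 36.6 CPM in *WD1* cKO replicates 1 to 5. All *WD1* cKO libraries lay within the range of the controls. The means were 38.8 ± 4.41 CPM (SD, n = 5) in control and 37.0 ± 2.71 CPM (SD, n = 5) in *WD1* cKO embryos, and the log2 fold change was -0.065 (SE 0.077, 95% interval -0.23 to 0.10, edgeR adjusted p = 1.00).

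**Figure D4:**
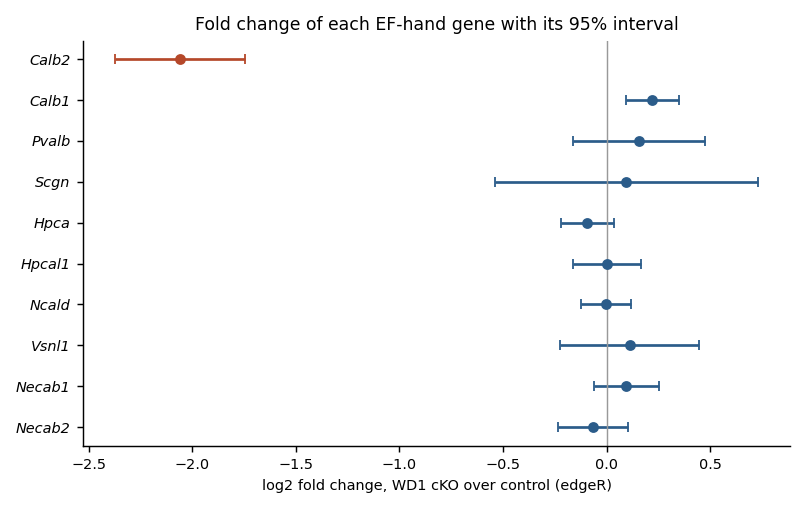
Fitted log2 fold change of each EF-hand gene (*WD1* cKO over control, edgeR) with its 95% interval; the vertical line marks no difference. *Calb2*, chosen by this comparison and shown as a description, is at -2.06, *Calb1* at 0.22 has an interval above 0, and the intervals of the other 8 genes include 0.

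The intervals set how large a difference could have gone unseen for each gene. For *Hpca*, *Hpcal1*, *Ncald* and *Necab2*, the interval kept the level in *WD1* cKO embryos within 15% of the control in either direction, between -14.9% and 12.04%. For *Necab1* it reached from -4.14% to 19.0%. The intervals were wider for *Pvalb* (-10.7% to 38.8%) and *Vsnl1* (-14.4% to 36.4%), which varied between embryos of 1 group. The widest was that of *Scgn* (-31.2% to 66.1%), which had few counts and also varied by more than Poisson counting gives.

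Compared per length of exon, as CPM per kilobase, the 4 visinin-like sensors, *Pvalb* and both NECAB genes were more abundant than calretinin and calbindin in control ganglia, and the sensor gene *Scgn* was less abundant. The order of the control means was *Hpcal1* at 126, *Pvalb* at 50.9, *Hpca* at 27.5, *Vsnl1* at 20.9, *Ncald* at 18.7, *Necab2* at 18.49, *Necab1* at 17.4, *Calb1* at 2.88, *Calb2* at 2.35 and *Scgn* at 0.675 CPM per kilobase. The ranges of neighbours in this order did not overlap between *Hpcal1* and *Pvalb*, *Pvalb* and *Hpca*, *Necab1* and *Calb1*, and *Calb2* and *Scgn*. They overlapped for all other neighbours, so that *Vsnl1*, *Ncald*, *Necab2* and *Necab1* were not separated step by step, nor was *Calb1* from *Calb2*. Compared within each control library, *Hpca* was above its neighbour *Vsnl1* in all 5, though their ranges overlapped, and *Calb1* was above *Calb2* in 4. *Hpcal1* was above 98.9% of all genes tested on this scale, *Calb1* above 40.4%, *Calb2* above 36.5% and *Scgn* above 17.0%.

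In *WD1* cKO ganglia the upper part of the order was similar, from *Hpcal1* at 126 and *Pvalb* at 56.6 to *Necab2* at 17.7 CPM per kilobase. *Calb1* was at 3.36 CPM per kilobase and no longer shared its range with *Calb2*. *Calb2*, at 0.563 CPM per kilobase, had the lowest mean of the 10, below *Scgn* at 0.719, though the ranges of these 2 genes overlapped. Calretinin and calbindin together made up 1.84% ± 0.168 (SD, n = 5) of the summed level per kilobase of the 10 genes in control and 1.36% ± 0.101 (SD, n = 5) in *WD1* cKO embryos, and the 4 visinin-like sensors 67.5% ± 2.58 and 66.4% ± 1.69.

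**Figure D5:**
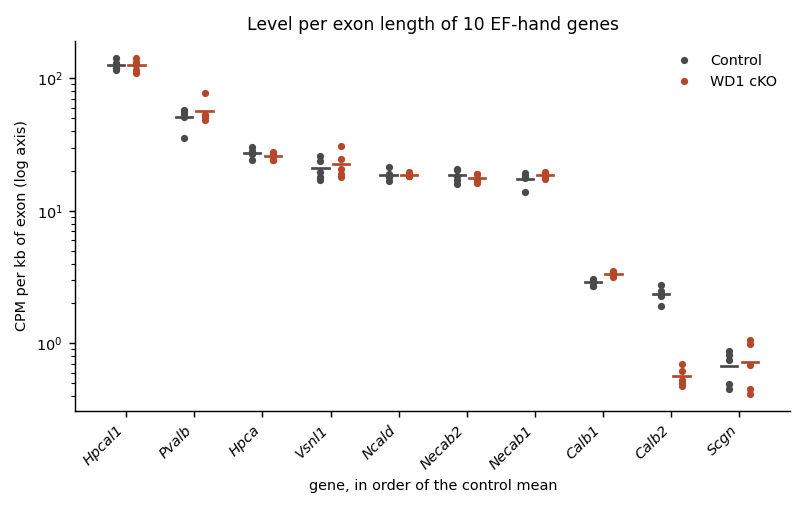
CPM per kilobase of exon (log axis) of the 10 EF-hand genes, ordered by the control mean; each point is 1 library and each bar a group mean. *Hpcal1* is highest at 126 in both groups, and *Calb2* is at 2.35, next to *Calb1*, in control and at 0.563, next to *Scgn*, in *WD1* cKO libraries.

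The genes whose pattern over the 10 libraries was most like that of *Calb2* were sought among the other 17489 genes tested, by the root mean square difference of log2 CPM centred on each gene's own mean. They were *Adtrp*, which encodes a membrane hydrolase, at 0.462, *H2afv*, a gene for a histone of the H2A.Z type, at 0.583, and *Dach1* at 0.586, while the median over all genes was 1.04. *Adtrp* was at 1.12 ± 0.218 CPM (SD, n = 5) in control and 0.330 ± 0.130 CPM (SD, n = 5) in *WD1* cKO embryos, and *H2afv* at 24.4 ± 1.88 and 12.5 ± 1.04 CPM. These 3 genes, like *Calb2*, were lower in *WD1* cKO embryos, and the likeness rests on that group difference.

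The wider calcium pathway was described by lists of genes outside the set, none of which held a gene with an adjusted p under 0.05 in edgeR's test. Of 16 other neuronal calcium sensors and calmodulins, 14 were tested, with 1 lower and 0 higher at an unadjusted p under 0.05 and a median log2 fold change of -0.015. The lower one was *Kcnip1*, which encodes a sensor subunit of A-type potassium channels, at 17.5 CPM in control and 15.1 CPM in *WD1* cKO embryos (log2 fold change -0.21, SE 0.085, edgeR adjusted p = 1.00). *Necab3*, the third NECAB gene, was next at -0.091 (SE 0.065, edgeR adjusted p = 1.00).

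S100 proteins are small EF-hand proteins of glia and other cells. Of the 12 genes listed 10 were tested, with 0 lower and 0 higher at an unadjusted p under 0.05 and a median log2 fold change of 0.062. *S100b*, a glial marker, was at 0.14 (SE 0.091, edgeR adjusted p = 1.00) and *S100a10*, which binds annexin A2, at 0.035 (SE 0.036, edgeR adjusted p = 1.00). Among 19 EF-hand proteins of the endoplasmic reticulum and mitochondria, 0 were lower and 1 was higher at an unadjusted p under 0.05, with a median of 0.015. This was *Rcn1*, a calcium-binding protein of the endoplasmic reticulum, at a log2 fold change of 0.13 (SE 0.054, edgeR adjusted p = 1.00).

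Downstream of calcium, 20 genes of calcineurin and the calmodulin-dependent kinases were tested, with 1 lower and 0 higher at an unadjusted p under 0.05 and a median log2 fold change of -0.0047. *Camk1g*, a calmodulin-dependent kinase, was at -0.14 (SE 0.064, edgeR adjusted p = 1.00), and *Ppp3cc*, a catalytic subunit of calcineurin, at 0.11 (SE 0.064, edgeR adjusted p = 1.00). Of 13 calcium pumps and exchangers, which move calcium across membranes, 0 had an unadjusted p under 0.05, and the median was -0.0077. The smallest p-values belonged to *Slc8b1*, the mitochondrial sodium-calcium exchanger, at 0.11 (SE 0.098, edgeR adjusted p = 1.00), and *Slc8a1*, the exchanger of the plasma membrane, at -0.088 (SE 0.088, edgeR adjusted p = 1.00).

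Markers of other cells that a dissected ganglion can hold were read in the same fit, and none of them had an adjusted p under 0.05. The summed level of 8 skeletal muscle genes, a tissue that also uses parvalbumin, was 33.9 to 212 CPM in control and 57.4 to 117 CPM in *WD1* cKO libraries, with a median log2 fold change of -0.55. It was highest in control replicate 5, where *Pvalb* was at 59.7 CPM, and lowest in control replicate 4, where *Pvalb* was at 55.6 CPM. The part of muscle RNA in the level of *Pvalb* was not tested. Of 10 nociceptor genes, 1 was lower and 0 were higher at an unadjusted p under 0.05, with a median log2 fold change of -0.049. For the 8 skeletal muscle, 8 pan-neuronal, 7 glial, 6 blood and 3 endothelial genes these numbers were 0 and 0, and for the 6 connective tissue genes 0 and 1. The median over the blood genes was -0.94 on the log2 scale, and none of the 12 spinal cord genes passed the filter on low counts.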

How the data were processed

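Per the submitters' processing notes, the authors used STAR 2.7.8a for alignment, with GRCm39 as the genome, and featureCounts 2.0.1 for counting, and they deposited raw counts per Ensembl gene for each of the 10 libraries. The strand setting of the counting and the treatment of multiply mapped reads are not given in the sources used here. Symbols, chromosomes, exon lengths, overlaps and coding sequences were taken from GENCODE M21, an annotation of GRCm38, so no coordinates of GRCm39 are given.

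The analysis used edgeR 4.0.16 under R 4.3.3. A gene was tested if 5 or more libraries held 10 or more counts of it, and groups were compared with glmQLFTest after TMM scaling, with no block or covariate and with Benjamini-Hochberg adjustment over 17490 genes. For single genes, mean log2 CPM (prior count 1) was compared by an exact two-sided permutation test over libraries. SE and 95% intervals came from the fit, and error bars on counts are exact Poisson intervals, which cover counting error only. The edgeR and DESeq2 fits, but not the other steps, were tested on simulated counts with known changes. At an adjusted p under 0.05, edgeR recovered 34% of changes of 0.3 and 100% of changes of 2 on the log2 scale. The simulation held 50 genes changed by 0.3 and others changed by more, against 7 genes called in the data. More changed genes make the adjusted threshold easier to pass, so recovery of small changes in these data can be lower. *Calb2* and *Scgn* had at most 109 counts in any library, which limits their precision. *Scgn* also varied between libraries by more than Poisson counting gives.

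The 10 genes and the gene lists were chosen with earlier results of these data known. Genes are named if they belong to the 10, if they are *Dach1*, if they had an adjusted p under 0.05 in a list or else the 2 smallest p-values of a calcium, A-LTMR or proprioceptor list, and if they were among the 3 most like *Calb2*; the other marker lists are given by their counts. A gene that this rule would name is not reported here. The same-numbered libraries were not treated as pairs, because the correlation of their deviations from the group means was above 0.1 for 4 of 5 numbers only (0.0417 to 0.393). Libraries of 1 group differed by more than sampling noise. The alternatives were DESeq2's size factors, the Wald test of DESeq2 1.42.0, no filter, a mean count of at least 100, robust dispersions, *Xist* as a covariate, a replicate block, plain totals, each library left out in turn and, chosen after the data were seen, splits by replicate number.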

Additional observations from a re-analysis of the deposited data

Results flagged for a closer look

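In 3 of 20 groups of 5 libraries (10 genes in both groups) the highest or lowest library stood farther from its nearest neighbour, relative to the range of the group, than Dixon's 95% critical value of 0.71 allows. Chance gives about 1 such group in 20. Parvalbumin accounted for 2 of them: *Pvalb* was at 37.0 CPM (785 counts) in control replicate 3, against 53.4 to 59.7 CPM in the other controls, and at 81.0 CPM (2806 counts) in *WD1* cKO replicate 5, against 50.4 to 55.6 CPM in the others of that group. The gap was 0.723 of the range for the low library and 0.831 for the high one. The neurocalcin gene *Ncald* was at 169 CPM (5839 counts) in *WD1* cKO replicate 5, while the remaining 4 libraries of its group lay between 157 and 159 CPM, and this value lies within the range of the controls.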

How the results depend on the processing

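*Calb2* stayed between -2.14 and -2.00 on the log2 scale in the 16 alternatives that tested it, and *Calb1* between 0.20 and 0.25 in 17. *Pvalb*, *Hpca*, *Necab1* and *Necab2* kept their direction in all 17 alternatives, which leave out the splits by replicate number. *Necab2* turned its sign only in such a split. None of the 9 genes other than *Calb2* passed an adjusted p of 0.05 in any alternative. The number of all genes with an adjusted p under 0.05, 7 in the edgeR fit, was 19 with DESeq2's Wald test, 4 under the stricter filter, a mean count of 100 or more, 4 with *Xist* as a covariate, and 3 to 6 with single libraries left out. In splits chosen after the data were seen it was 11 with a term for replicate numbers 4 and 5, 3 with numbers 1 to 3 alone and 3 with numbers 4 and 5 alone. The same count over the 10 EF-hand genes, which *Calb2* enters by its choice and from which nothing is read, was 0 under the stricter filter, where *Calb2* and *Scgn* were not tested, and 0 with numbers 4 and 5 alone, which leaves 2 libraries in each group.

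The log2 fold changes near 0 turned their sign. *Hpcal1*, 0.00042 in the edgeR fit, was -0.0011 with DESeq2's size factors and with its Wald test, -0.0013 with the replicate block, -0.012 with numbers 1 to 3 alone, and -0.056 to 0.049 with single libraries left out. *Ncald*, -0.0042, was 0.0059 with no filter on low counts and with numbers 4 and 5 alone, and -0.044 to 0.049 with single libraries left out. *Necab2*, -0.065, was 0.030 with numbers 4 and 5 alone. *Scgn*, 0.096, ranged from -0.077 to 0.23 with single libraries left out, and was below 0 without control replicate 1 (-0.012), *WD1* cKO replicate 2 (-0.077) or *WD1* cKO replicate 5 (-0.059). *Vsnl1*, 0.11, ranged from -0.035 (without *WD1* cKO replicate 5) to 0.20. The median over the 10 genes, 0.048, ranged from -0.046 (without *WD1* cKO replicate 5) to 0.082. The cause was not tested.

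With the replicate block, 8 genes in all and 0 of the 9 EF-hand genes other than *Calb2* had an adjusted p under 0.05 in edgeR's test, and *Calb1* was at 0.22 (edgeR adjusted p = 0.402). The block changed no call among these 9 genes. Not every library correlated best with the library of its own number, control replicate 2 being closest to *WD1* cKO replicate 1. *Scgn* had a wide interval. Its coefficient of variation was 28.4% in control and 41.0% in *WD1* cKO libraries, against 19.9% and 17.7% from Poisson counting.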
